A study of Rattus norvegicus with 30 samples.

Results

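Nuclear factor Y (NF-Y) is built from the products of Nfya, Nfyb and Nfyc, and the GC-box binding proteins Sp1, Sp3 and Sp4 often act at the same promoters. These 6 genes were taken by their symbols from the 21993 genes listed in the deposited tables of hippocampal neurons. They were picked because Nfya fell after 4 h with dimethyl fumarate (DMF) and then rose again, so the values of Nfya in those contrasts are given as a description, without a test. The neurons came from wild-type Wistar rat embryos at day 18 of gestation and were cultured for 7 days. They then received 30 µM DMF, 30 µM monomethyl fumarate (MMF) or 6 µM cannabidiol (CBD), and RNA was sequenced after 4 or 24 h. The controls of both fumarates received dimethyl sulfoxide (DMSO) alone and those of CBD ethanol (EtOH) alone, and all cultures, drug-treated ones included, held 0.2% vehicle. Each of the 10 groups had 3 libraries, numbered 1 to 3, and the labels state that each experiment was repeated 3 times. DMF is the dimethyl ester of fumaric acid and MMF is its monomethyl ester, while CBD is a plant cannabinoid.

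NF-Y is a heterotrimer that recognises the CCAAT box of many promoters. NF-YB and NF-YC pair through histone folds, and NF-YA then joins them and supplies the contact with the CCAAT sequence, so that a complex without NF-YA does not bind the box. Sp1, Sp3 and Sp4 are zinc finger proteins that bind GC boxes. Sp1 and Sp3 are made in most cells, whereas Sp4 is enriched in neurons. CCAAT boxes recur in the promoters of cell cycle genes and of chaperones of the endoplasmic reticulum (ER), where NF-Y works with ATF6, and in those of sterol genes, where NF-Y or Sp1 works with SREBP.

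Between 15108132 and 25367834 reads per library lay on genes. All 6 members were detected in every library, from 353 reads for Sp4 to 2336 reads for Nfya. Defining neuronal markers were present throughout, with Map2 between 899.7 and 1223 CPM, reads scaled to the total of the library. Summed over the list, the 7 neuronal markers lay between 3259 and 4544 CPM, the 6 astrocyte markers between 1843 and 4871 CPM, the 6 markers of the oligodendrocyte lineage between 453 and 1076 CPM, and the 6 microglial markers between 1.06 and 12.2 CPM. With DMF at 4 h the neuronal sum was between 3259 and 3667 CPM, below the 3687 to 4410.4 CPM with DMSO at 4 h, and 1 of the 7 neuronal markers was called lower. Its part in the results on the members was not tested. The cultures thus held RNA of glia beside that of neurons, and in bulk RNA fewer cells of a type and less RNA per cell cannot be told apart. Levels below are scaled reads, that is, reads divided by a size factor per library computed over all 30 libraries, and they compare 1 gene across groups. They do not compare genes with each other, because they are not per transcript length. Log2 fold changes (log2FC) come from the table of each pair of groups, with limma on log2 of the normalized count plus 1. A gene was called at a Benjamini-Hochberg adjusted p under 0.05 over all genes tested. This main test did not pair libraries of the same number, and a fit with that number as a block was an alternative.

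The promoter of Nfya is shown first, because its own window holds the box that NF-Y binds. Those of Sp1 and Sp4 stand beside it, because their normalized counts with DMF at 4 h all lay above those with DMSO. RefSeq promoter windows (assembly GRCr8, 250 bases before to 50 bases after the annotated start) were matched by symbol for 5 of the 6 members. Capitals mark CCAAT (or ATTGG on the other strand) and GGGCGG (or CCGCCC). The windows are chr9:20084831-20085130 on the plus strand for Nfya, chr7:135419800-135420099 on the plus strand for Sp1 and chr6:145395065-145395364 on the minus strand for Sp4.
Nfya: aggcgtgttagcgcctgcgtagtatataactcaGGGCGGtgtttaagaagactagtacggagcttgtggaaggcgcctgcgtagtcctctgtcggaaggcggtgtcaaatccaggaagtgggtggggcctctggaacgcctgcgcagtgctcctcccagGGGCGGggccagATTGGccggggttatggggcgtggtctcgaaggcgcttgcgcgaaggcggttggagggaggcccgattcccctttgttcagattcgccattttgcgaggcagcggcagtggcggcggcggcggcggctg
Sp1: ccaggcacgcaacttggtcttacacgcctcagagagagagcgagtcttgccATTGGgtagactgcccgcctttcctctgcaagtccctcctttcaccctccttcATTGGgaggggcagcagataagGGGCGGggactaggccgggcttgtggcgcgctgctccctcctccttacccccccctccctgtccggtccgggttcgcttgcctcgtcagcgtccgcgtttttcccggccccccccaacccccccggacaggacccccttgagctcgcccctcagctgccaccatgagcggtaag
Sp4: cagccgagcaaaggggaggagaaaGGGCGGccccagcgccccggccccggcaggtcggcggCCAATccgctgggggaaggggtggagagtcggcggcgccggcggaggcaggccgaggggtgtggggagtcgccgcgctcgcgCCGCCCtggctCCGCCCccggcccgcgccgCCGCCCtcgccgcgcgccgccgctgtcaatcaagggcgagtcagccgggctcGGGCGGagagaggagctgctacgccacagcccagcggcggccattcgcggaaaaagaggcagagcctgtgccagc
The Nfya window held 1 CCAAT box, on the opposite strand, from 79 to 75 bases before the start, and 2 GC boxes. The Sp1 window held 2 CCAAT boxes and 1 GC box, the Sp3 window 1 of each, and the Sp4 window 1 CCAAT box and 5 GC boxes. The Nfyb window held 4 GC boxes and 0 CCAAT boxes. Of all 33469 promoter windows in the same table, 37.5% held CCAAT on either strand and 33.1% held GGGCGG on either strand, against 4 and 5 of the 5 member windows. Genes in the deposited tables were matched to windows for 14064 of 20736 symbols and thus only in part. Counted per gene rather than per window, 38.9% of those matched held CCAAT in any of their windows and 54.0% held GGGCGG.

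Windows of 2 genes from the lists described further on show the same letters in known NF-Y targets. Hspa5, which encodes the ER chaperone BiP, lies on the plus strand at chr3:38452766-38453065, and Top2a, which encodes DNA topoisomerase II alpha, on the minus strand at chr10:84473044-84473343.
Hspa5: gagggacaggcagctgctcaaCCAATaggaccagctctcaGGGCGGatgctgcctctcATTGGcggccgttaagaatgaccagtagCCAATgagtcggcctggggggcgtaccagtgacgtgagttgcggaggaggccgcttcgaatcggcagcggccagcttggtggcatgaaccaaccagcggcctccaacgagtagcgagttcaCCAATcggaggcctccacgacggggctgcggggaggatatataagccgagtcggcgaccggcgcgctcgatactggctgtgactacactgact
Top2a: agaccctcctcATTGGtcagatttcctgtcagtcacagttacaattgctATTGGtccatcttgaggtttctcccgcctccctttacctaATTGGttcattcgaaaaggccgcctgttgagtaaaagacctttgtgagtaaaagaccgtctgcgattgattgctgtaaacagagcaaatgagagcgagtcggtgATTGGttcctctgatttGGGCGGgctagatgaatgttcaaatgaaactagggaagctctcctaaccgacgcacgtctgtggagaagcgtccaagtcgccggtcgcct
The Hspa5 window held 4 CCAAT boxes and the Top2a window also 4. In the Hspa5 window, the CCAAT box that starts 43 bases before the start is followed by CCACG after 9 bases, the spacing of the ER stress element (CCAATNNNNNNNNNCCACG). These letters, on either strand, occurred in 0.0657% of all windows and in none of the 5 member windows. Counted per gene, 0.128% of the matched genes in the tables held them in any window.

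**Figure D1:**
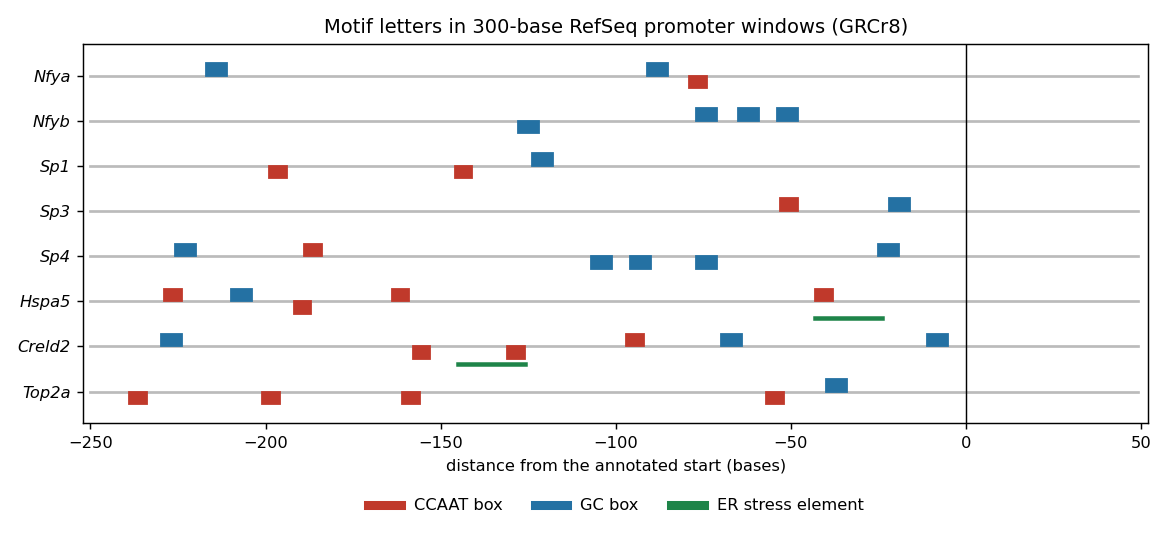
Motif letters in 300-base promoter windows of 5 members and of Hspa5, Creld2 and Top2a, by distance from the annotated start in bases; red marks CCAAT, blue GGGCGG and green the ER stress element, above the line for the strand of the gene and below it for the other. Nfya has 1 red and 2 blue marks, and Hspa5 and Top2a have 4 red marks each.

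Nfya (ENSRNOG00000012702, chr9:12586259-12613898 in mRatBN7.2) encodes the subunit that contacts the DNA. After 4 h with DMSO, its level was 1525, 1723 and 1777 scaled reads in libraries 1, 2 and 3. After 4 h with DMF, it was 734, 654 and 615 scaled reads. Every DMF library at 4 h thus lay below every other library of the series, the lowest of which had 1439.8 scaled reads. After 4 h with MMF, the level was 1457, 1593 and 1898 scaled reads. With EtOH and CBD at 4 h, it lay between 1690.5 and 1866 and between 1802 and 1890.3 scaled reads, so the CBD libraries overlapped those of EtOH. After 24 h, it was 1636, 1719 and 1786 with DMSO and 1575, 1574 and 1854 with DMF, so that both groups overlapped. The remaining libraries at 24 h had 1508, 1439.8 and 1688 scaled reads with MMF, 1520, 1443 and 1808 with EtOH, and 1784, 1922 and 1942 with CBD. In order of the group means, DMF at 4 h was lowest with 668 ± 61.0 (SD, n = 3) and CBD at 24 h highest with 1882.5 ± 86.1 (SD, n = 3). The other 8 groups had means between 1545.5 and 1832, and the libraries of neighbours in this order overlapped.

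**Figure D2:**
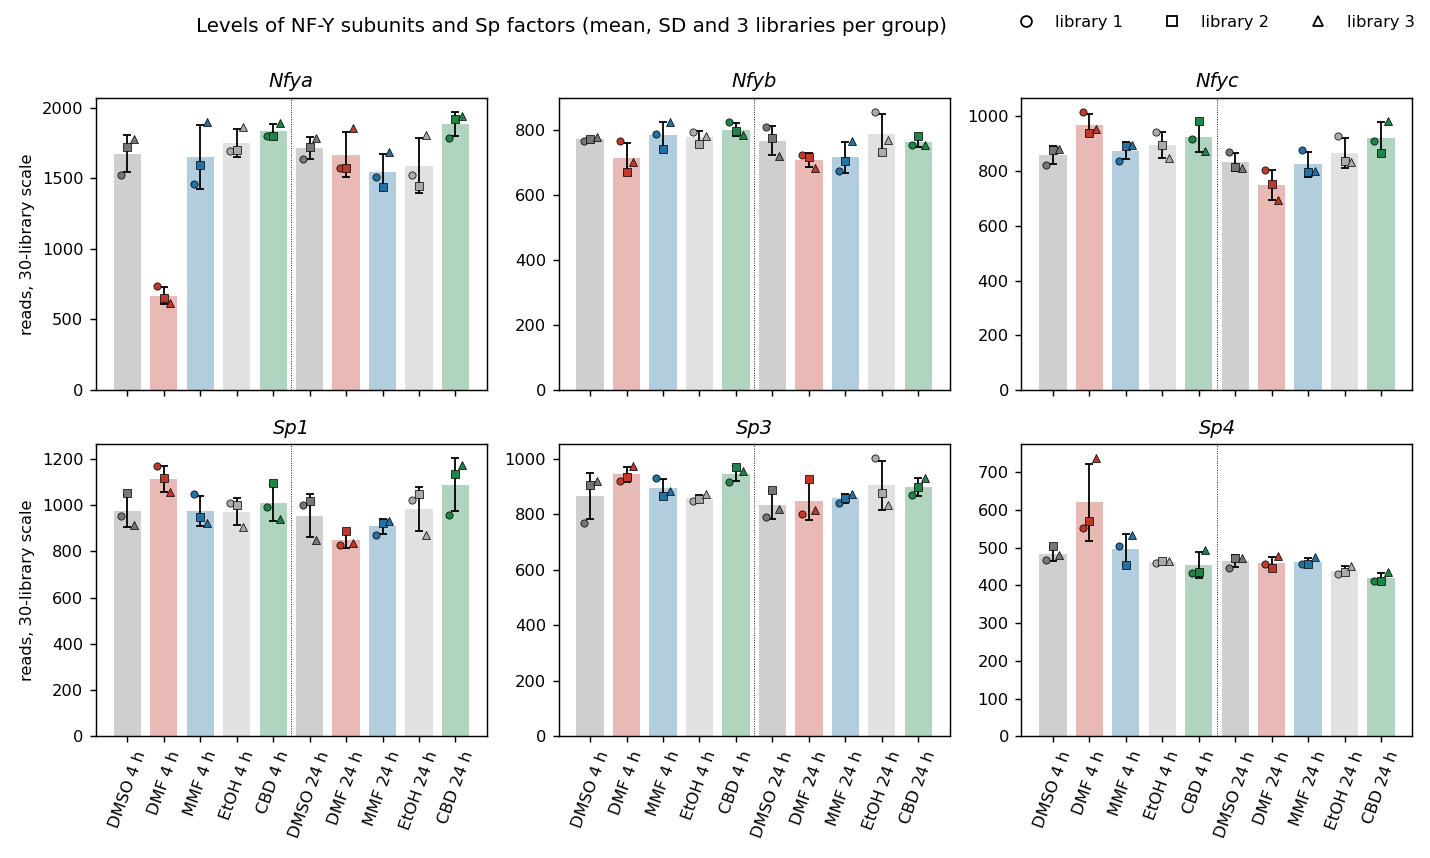
Levels of the 6 members in scaled reads by group; bars are means, error bars SD of 3 libraries, and circles, squares and triangles are libraries 1, 2 and 3, with 4 h left and 24 h right of the dotted line. Nfya stands at 668 with DMF at 4 h and at or above 1439.8 in each library of the other groups, while the levels of the other members stay within a 1.48-fold range of group means.

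As the rule selected it, Nfya fell by 1.33 on the log2 scale with DMF against DMSO at 4 h (SE 0.0949). Within libraries of the same number, its log2 ratio was -1.06, -1.40 and -1.54. Of the 14208 genes tested, 39 had a lower log2FC. Between 4 and 24 h with DMF, Nfya rose by a log2FC of 1.32 (SE 0.10), with 1.11, 1.27 and 1.60 within library numbers. In the DMSO libraries the same span of time gave a log2FC of 0.04, with a 95% interval from -0.14 to 0.21, and limma called none of the 6 members there. The effect of DMF on Nfya at 24 h minus that at 4 h was 1.29 (SE 0.127) on the log2 scale. At 24 h, Nfya in the DMF libraries stood at a log2FC of -0.04 against DMSO, with a 95% interval from -0.22 to 0.14.

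The levels of the other NF-Y subunits are given further on. The share of Nfya in the reads of the 3 subunits was 50.6 ± 1.44% (SD, n = 3) with DMSO at 4 h and 28.4 ± 1.15% with DMF at 4 h. In the other 8 groups the mean share lay between 48.9% and 53.3%. These shares contain the Nfya values that the rule used and are a description. This share is of reads and not of transcripts, since the subunits differ in transcript length. Nfya is known to have long and short splice forms, and counts per gene do not separate them.

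The upstream neighbour of Nfya, Oard1, which encodes an ADP-ribose hydrolase, overlaps it by 991 bases in the files' annotation, and its 2 RefSeq starts lie 273 and 479 bases away on the other strand. Their promoter windows share 228 and 22 bases with that of Nfya. With DMSO at 4 h, Oard1 had 117, 136 and 156 normalized counts, and with DMF 157, 126 and 126. The groups overlapped, and the log2FC was 0.00 (SE 0.167, adjusted p = 0.999 by limma). Reads in the stretch that both genes cover cannot be assigned without the strand setting of the counting, which the sources used here do not give. Oard1 held between 94 and 193 reads per library and Nfya 685 or more. The part of the shared stretch in these counts was not tested.

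Nfyb (ENSRNOG00000010309, chr7:20964993-20980565) encodes a histone-fold subunit. Its level was 767, 774 and 779 scaled reads with DMSO and 767, 673 and 704 with DMF at 4 h. At 24 h it was 810, 777 and 720 with DMSO and 724, 719 and 685 with DMF. At 4 h, library 1 with DMF all but equalled the lowest DMSO library and the others lay below, and at 24 h the groups overlapped. The log2FC was -0.12 (SE 0.0791, adjusted p = 0.445) at 4 h and -0.12 (SE 0.0757, adjusted p = 0.488) at 24 h, so no difference was called. Over the 10 groups, the means of Nfyb ranged only from 709 to 803, a 1.13-fold range, and the F-test over groups did not call it (adjusted p = 0.193).

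Nfyc (ENSRNOG00000010735, chr5:134336808-134405377) encodes the other histone-fold subunit. With DMSO at 4 h, it had 822, 876 and 879 scaled reads, and with DMF 1016, 939 and 955. With DMSO at 24 h, it had 871, 814 and 813, and with DMF 804, 752 and 695. The DMF group was thus the highest of the 10 groups at 4 h and the lowest at 24 h. Against DMSO, the log2FC was 0.17 (SE 0.0737, adjusted p = 0.248) at 4 h and -0.15 (SE 0.0796, adjusted p = 0.374) at 24 h, and neither difference was called. From 4 to 24 h with DMF, Nfyc fell by 0.37 on the log2 scale (SE 0.0842, adjusted p = 0.0220 by limma), in 3 of 3 library numbers. This call was lost without DMF library 1 at 4 h (adjusted p = 0.0780), without library 2 at 4 h (0.0631), without library 2 at 24 h (0.0757) and without library 3 at 24 h (0.0559). The span of Nfyc also holds the genes of the microRNAs Mir30c1 and Mir30e, which had at most 3 and 2 reads in any library.

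Sp1 (ENSRNOG00000014084, chr7:133541491-133571961) encodes the founding member of the Sp family. With DMSO at 4 h, its level was 954, 1051 and 916 scaled reads, and with DMF 1168, 1119 and 1056. With DMSO at 24 h, it was 999, 1018 and 848, and with DMF 826, 889 and 836. As for Nfyc, the DMF group had the highest mean at 4 h and the lowest at 24 h. The log2FC against DMSO was 0.19 (SE 0.0807, adjusted p = 0.239) at 4 h and -0.16 (SE 0.0871, adjusted p = 0.384) at 24 h. With the library number as a block, the rise at 4 h was called (adjusted p = 0.0430). From 4 to 24 h with DMF, Sp1 fell by 0.38 on the log2 scale (SE 0.0772, adjusted p = 0.0137 by limma), in 3 of 3 library numbers. Without DMF library 1 at 4 h the adjusted p of this fall was 0.0544, and without library 2 at 4 h it was 0.0571.

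Sp3 (ENSRNOG00000060479, chr3:57812075-57860342) encodes a close relative of Sp1 that binds the same boxes. At 4 h it had 769, 904 and 920 scaled reads with DMSO and 921, 935 and 973 with DMF, a log2FC of 0.12 (SE 0.0901, adjusted p = 0.507). At 24 h it had 789, 887 and 818 with DMSO and 801, 926 and 815 with DMF, a log2FC of 0.03 (SE 0.0841, adjusted p = 0.916). No comparison called Sp3 with limma, and its group means ranged from 832 to 946, a 1.14-fold range.

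Sp4 (ENSRNOG00000005472, chr6:139192147-139252126) encodes the neuronal member of the group. At 4 h, it had 467, 503 and 480 scaled reads with DMSO and 551, 572 and 737 with DMF. Library 3 of the DMF group was far above the other libraries, but libraries 1 and 2 also lay above all DMSO libraries. The log2FC was 0.34 (SE 0.122) at 4 h and was not called (adjusted p = 0.166), whereas the library number as a block gave a call (adjusted p = 0.0125). Without library 3 of DMF the log2FC was 0.21 (adjusted p = 0.346). At 24 h, the level was 447, 474 and 473 with DMSO and 458, 447 and 478 with DMF. There the groups overlapped, with a log2FC of -0.01 (SE 0.0799, adjusted p = 0.959). From 4 to 24 h with DMF, the log2FC was -0.41 (SE 0.12), just outside the threshold (adjusted p = 0.0512), and it was called with the block (adjusted p = 0.00605), by DESeq2 (adjusted p = 0.0233) and by edgeR (adjusted p = 0.0481). Across the other groups the level of Sp4 lay between 411 and 533 scaled reads.

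**Figure D3:**
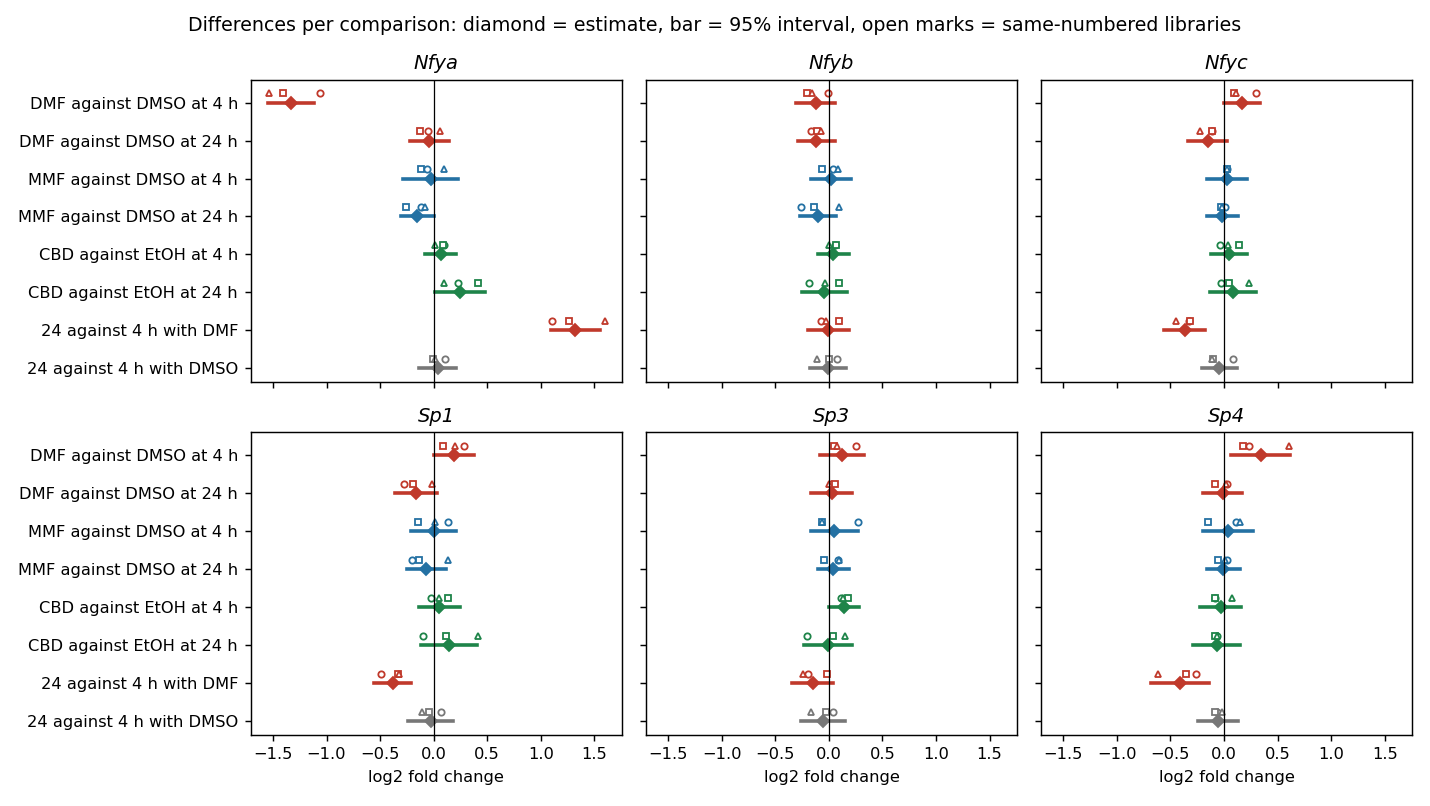
Log2 fold changes of the 6 members in 8 comparisons; diamonds are limma estimates, bars their 95% intervals, and open circles, squares and triangles the log2 ratios of libraries 1, 2 and 3. Nfya for DMF at 4 h and for 24 against 4 h with DMF holds values that the rule used, so its intervals there are no test. The intervals of Nfyc, Sp1 and Sp4 lie below 0 for 24 against 4 h with DMF. Above 0 lie those of Nfyc, Sp1 and Sp4 for DMF at 4 h, Sp3 for CBD at 4 h and Nfya for CBD at 24 h. Limma called none of these latter differences.

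Calls were counted over the 5 members other than Nfya, since the rule used Nfya in the contrasts with DMF at 4 h. DMF against DMSO at 4 h had 0 of 5 called by limma, DESeq2 and edgeR, where limma called 3.41% of all genes, and 3 of 5 had an unadjusted p under 0.05. With the block, 2 of 5 were called (Sp1 and Sp4, both higher), against 23% of all genes. In the normalized counts of that comparison, 4 of the 5, Sp3 excepted, had groups that did not overlap, against 26.3% of all genes. In scaled reads the lowest DMF library of Sp3 (920.96) lay just above the highest DMSO library (920.02). For 24 against 4 h with DMF, 2 of 5 were called (Nfyc and Sp1, both lower), against 15.5% of all genes, and 3 of 5 with the block, against 32.3%. DMF against DMSO at 24 h called 0 of 6, against 3.97% of all genes, and 0 of 6 also had an unadjusted p under 0.05. The spread between groups was also tested over all 30 libraries with limma's F-test, which called 25% of the 14930 genes. Of the 5 members other than Nfya, it called Nfyc (adjusted p = 0.0110), Sp1 (adjusted p = 0.0441) and Sp4 (adjusted p = 0.00202) but not Nfyb or Sp3 (adjusted p = 0.333).

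Whether the effect of DMF differed between 4 and 24 h was tested as an interaction over 12 libraries, which called 4.12% of 14432 genes. For Nfyc the difference was -0.32 (SE 0.102, adjusted p = 0.0963), for Sp1 -0.35 (SE 0.118, adjusted p = 0.112) and for Sp4 -0.35 (SE 0.143, adjusted p = 0.192) on the log2 scale. None of the 5 members other than Nfya was called, though 3 had an unadjusted p under 0.05. With the library number as a block, Nfyc (adjusted p = 0.0386) and Sp1 (adjusted p = 0.0206) were called, against 13.2% of all genes. For Nfyb the difference was 0.01 (SE 0.101) and for Sp3 -0.10 (SE 0.121).

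MMF is the monoester to which DMF is hydrolysed, and both were given at 30 µM, so their values can be set side by side at the same nominal dose and time. Uptake and hydrolysis were not measured in these files. At 4 h, MMF against DMSO called 0 of 6 members and 0% of all genes with limma, and 0 members had an unadjusted p under 0.05 or were called by DESeq2 or edgeR. The log2FC of Nfya was -0.03, with a 95% interval from -0.29 to 0.23, and those of the other members lay between 0.00 and 0.05. At 24 h, MMF against DMSO again called 0 of 6 by any of the 3 tools, against 0.00707% of all genes, and Nfya had a log2FC of -0.15 with an interval from -0.31 to 0.00. Set directly against MMF at 4 h, Nfya was lower with DMF by a log2FC of -1.31 (SE 0.1165), a description since the rule selected on the same libraries. Of the other 5 members, this comparison called 0 by limma, DESeq2 and edgeR, with 0 at an unadjusted p under 0.05, where limma called 1.61% of all genes. With the block it called 2 of 5, against 23.6%, since Sp1 (log2FC 0.18, SE 0.0826, adjusted p = 0.303 without and 0.0450 with the block) and Sp4 (log2FC 0.30, SE 0.13, adjusted p = 0.287 without and 0.0138 with the block) were then higher with DMF. Without library 3 of DMF, the log2FC of Sp4 was 0.17. For Nfyb, Nfyc and Sp3, DMF and MMF at 4 h were not told apart, with 95% intervals of the difference from -0.35 to 0.05, from -0.04 to 0.31 and from -0.10 to 0.24. At 24 h, DMF against MMF called 0 of 6 by limma, DESeq2 and edgeR, and 0 had an unadjusted p under 0.05, where limma called 3.56% of all genes. The difference for Nfya was then 0.11, with an interval from -0.10 to 0.31. The effect of MMF at 24 h minus that at 4 h was called for 0 of 6 members and 0% of all genes, with 0 members at an unadjusted p under 0.05.

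CBD was dissolved in EtOH and given at 6 µM, so its values stand beside those of the fumarates without a comparison. CBD against EtOH called 0 of 6 members at 4 h and at 24 h with limma, DESeq2 and edgeR, against 0.00705% and 0.114% of all genes with limma. At an unadjusted p under 0.05, 1 member was higher at 4 h (Sp3) and 1 at 24 h (Nfya). Sp3 had 847, 853 and 872 scaled reads with EtOH and 914, 969 and 956 with CBD at 4 h, groups that did not overlap, with a log2FC of 0.14 (SE 0.0596, adjusted p = 1.00). Nfya at 24 h had a log2FC of 0.25 (SE 0.102, adjusted p = 0.490), higher in 3 of 3 library numbers, by 0.23, 0.42 and 0.10. The effect of CBD at 24 h minus that at 4 h was called for 0 members and 0% of all genes, with 0 members at an unadjusted p under 0.05. In the DMSO controls, 24 against 4 h called 0 of 6 members with the 3 tools, also 0% of all genes with limma, and 0 members at an unadjusted p under 0.05.

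The 5 genes whose level was most like that of Nfya over the 30 libraries, after removal of the mean of each library number, were Mus81 (Pearson r = 0.949), Cxcl12 (r = 0.949), Mbtps1 (r = 0.946), Itfg2 (r = 0.942) and Zfp608 (r = 0.939). Libraries of 1 group share their treatment and are not independent points, so these values only rank likeness. Without the 3 DMF libraries at 4 h, r over the other 27 libraries lay between 0.332 for Mbtps1 and 0.625 for Itfg2, so the likeness rests largely on those libraries. Mus81 encodes a structure-specific DNA endonuclease, Cxcl12 a chemokine, and Mbtps1 the site-1 protease that cleaves SREBP and ATF6 precursors. With DMF against DMSO at 4 h, the log2FC was -0.86 for Mus81, -1.64 for Cxcl12, -0.59 for Mbtps1, -0.92 for Itfg2 and -0.75 for Zfp608, values that their likeness to Nfya selected. From 4 to 24 h with DMF, these genes had log2FCs between 0.50 and 1.59, and at 24 h against DMSO between -0.17 and 0.08. Cxcl12 fell further than Nfya, to 226 scaled reads with DMF from 696 with DMSO at 4 h. When the means of the library numbers were kept, only Itfg2 and Zfp608 stayed among the first 5.

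**Figure D4:**
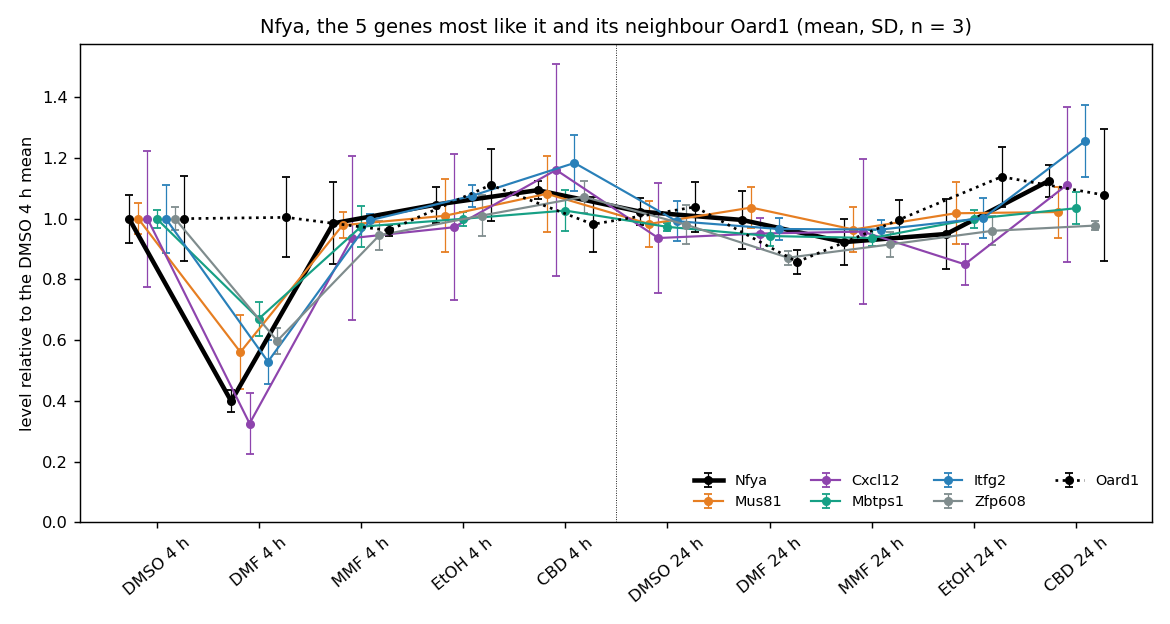
Group means of Nfya (thick line), the 5 genes most like it and its neighbour Oard1 (dotted), each divided by its own mean with DMSO at 4 h, with SD of 3 libraries; lines only join points of a gene. With DMF at 4 h Nfya and the 5 genes dip, down to 668 scaled reads for Nfya, while Oard1 has a log2FC of 0.00.

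Among the other Sp factors, Sp5, Sp6 and Sp7 were too low to be tested, and Sp2, Sp8 and Sp9 were tested. With DMF against DMSO at 4 h, limma, DESeq2 and edgeR called 0 of these 3, with 1 at an unadjusted p under 0.05. With the block 2 were called, against 23% of all genes, and their log2FCs, in the order of the 3 genes, were -0.29, -0.34 and -0.56. From 4 to 24 h with DMF, Sp9, a factor of forebrain interneurons, rose by a log2FC of 1.01 (SE 0.279, adjusted p = 0.0418), from 68.6 ± 21.8 to 138 ± 36.3 normalized counts (SD, n = 3). Of the 5 histone-fold relatives of NF-YB and NF-YC (Dr1, Drap1, Pole3, Pole4 and Chrac1), limma called 0 with DMF at 4 h, against 3.41% of all genes. There, 2 had an unadjusted p under 0.05, and DESeq2 and edgeR called 0. With the block, 1 was called higher and 1 lower, against 23% of all genes. In the DMF cultures, from 4 to 24 h, Chrac1, a subunit of a chromatin remodelling complex, rose by a log2FC of 0.70 (SE 0.162, adjusted p = 0.0227). Between these times, limma called 15.5% of all genes, which also stands beside the call of Sp9.

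Of 19 partners and coactivators of NF-Y and Sp factors, limma called 2 higher and 0 lower with DMF at 4 h, where 3.41% of all genes were called. With the block, 4 were called higher and 4 lower, against 23% of all genes. The median log2FC was -0.05 against 0.00 over all genes. Rfx5, which cooperates with NF-Y at major histocompatibility complex class II promoters, rose from 1075 ± 89.7 to 1713 ± 95.2 normalized counts (log2FC 0.67, SE 0.0841, adjusted p = 0.0107). Taf4, a subunit of TFIID that Sp1 contacts, rose by a log2FC of 0.60 (SE 0.113, adjusted p = 0.0334). Both fell again from 4 to 24 h with DMF, by 0.96 (SE 0.121, adjusted p = 0.00205) and 0.55 (SE 0.129, adjusted p = 0.0243) on the log2 scale. Srebf1, the gene of the sterol regulatory factor SREBP1, had a log2FC of -0.70 (SE 0.178, adjusted p = 0.0694) with DMF at 4 h, which the block called (adjusted p = 2.69e-06). At 24 h it was higher with DMF, with a log2FC of 1.22 (SE 0.160, adjusted p = 0.00476), and E2f1 was lower, with a log2FC of -0.39 (SE 0.0818, adjusted p = 0.0333). Between 4 and 24 h with DMF, Srebf1 rose from 1472 ± 315 to 6017 ± 1209 normalized counts, and Ep300, which encodes the acetyltransferase p300, fell by 0.35 on the log2 scale (SE 0.0808, adjusted p = 0.0223). In all, 1 of the 19 rose and 5 fell between these times, where 15.5% of all genes were called.

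Genes of the ER stress response were higher with DMF at 4 h. All gene lists were chosen with earlier results of these data known, so their counts of calls are a description. With DMF against DMSO at 4 h, 11 of 13 were called higher and 0 lower, where 3.41% of all genes were called, and all 13 had a log2FC above 0, with a median of 0.81 against 0.00 over all genes. Creld2, an ER-resident secreted factor, rose from 477 ± 27.4 to 1042 ± 86.7 normalized counts (log2FC 1.12, SE 0.0919, adjusted p = 0.00469). Hspa5 rose from 8428 ± 593 to 15535 ± 70.2 normalized counts (log2FC 0.88, SE 0.0806, adjusted p = 0.00469). Of the 12 genes of this list with a promoter window, all 12 held CCAAT and 7 held the ER stress element. The genes were listed as ER stress genes with CCAAT boxes, so the share with CCAAT follows from that choice and is not a result. In the DMF cultures, from 4 to 24 h, 10 of 13 fell, where 15.5% of all genes were called. Pdia4, a protein disulfide isomerase, fell by 1.34 on the log2 scale (SE 0.10, adjusted p = 0.000220). Hsp90b1, the ER paralogue of HSP90, fell by 1.36 (SE 0.111, adjusted p = 0.000309). At 24 h against DMSO, 1 was higher and 3 were lower, where 3.97% of all genes were called. The higher one was Ddit3, the gene of the factor CHOP, with a log2FC of 0.99 (SE 0.137, adjusted p = 0.00603). Among the lower ones were Calr, the gene of calreticulin, with a log2FC of -0.54 (SE 0.0875, adjusted p = 0.0123), and Hsp90b1 with a log2FC of -0.48 (SE 0.0981, adjusted p = 0.0320). With the block, 12 were higher at 4 h, against 23% of all genes called. At 24 h the block gave 2 higher and 6 lower, against 12.9% of all genes called. CBD against EtOH at 4 h gave this list a median log2FC of 0.50, with all 13 above 0. Limma and edgeR called 0 of 13 there, 12 had an unadjusted p under 0.05, DESeq2 called 6 and limma with the block 12, against 2.33% of all genes. At 24 h with CBD the median was 0.41, again with all 13 above 0, while limma, edgeR and limma with the block called 0, DESeq2 called 4 and 8 had an unadjusted p under 0.05. Nfya in the CBD libraries at 4 h had a log2FC of 0.06 (SE 0.0618).

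Sterol and fatty acid genes, at whose promoters NF-Y or Sp1 acts with SREBP, were lower with DMF at 4 h. This list too was chosen with earlier results of these data known. Of 13 tested, 6 were called lower and 0 higher, where 3.41% of all genes were called, and 0 had a log2FC above 0, with a median of -0.51. With the block, 11 were lower, against 23% of all genes called. Fdft1, the gene of squalene synthase, fell by 0.79 on the log2 scale (SE 0.0860, adjusted p = 0.00859). At 24 h, 6 were lower and 1 higher, where 3.97% of all genes were called. Fasn, the gene of fatty acid synthase, was the higher one, with a log2FC of 0.83 (SE 0.0878, adjusted p = 0.00164). Hmgcs1, the gene of the cytosolic enzyme that makes HMG-CoA, was lower by a log2FC of -0.63 (SE 0.0833, adjusted p = 0.00500), and Sc5d, a sterol desaturase gene, by -0.44 (SE 0.0603, adjusted p = 0.00576). Between 4 and 24 h with DMF, 5 rose and 1 fell, where 15.5% of all genes were called. Insig1, which holds SREBP in the ER, had a log2FC of 1.00 (SE 0.128, adjusted p = 0.00211), Fasn one of 0.97 (SE 0.148, adjusted p = 0.00465) and Sc5d one of -0.32 (SE 0.0728, adjusted p = 0.0211). CBD at 4 h gave a median of -0.28 with 0 of 13 above 0. Limma, DESeq2 and edgeR called 0 of them there, 8 had an unadjusted p under 0.05, and limma with the block called 10 lower, against 2.33% of all genes.

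Cell cycle genes listed as NF-Y targets were lower with DMF at 24 h. This list too was chosen with earlier results of these data known. Of its 13 genes with a promoter window, 9 held CCAAT. The genes were listed as ones with CCAAT boxes, so this share is not a result. With DMF at 4 h, limma, DESeq2 and edgeR called 0 of 15, with a median log2FC of 0.20. At an unadjusted p under 0.05, 4 were higher, and also 4 with the block, against 23% of all genes called. At 24 h, 13 of 15 were called lower, where 3.97% of all genes were called. Their median was -1.09 against -0.01 over all genes. Top2a was 1359 ± 102 with DMSO and 492 ± 59.4 normalized counts with DMF (log2FC -1.47, SE 0.103, adjusted p = 0.000511). Cdk1, the gene of the mitotic kinase, fell by 1.30 on the log2 scale (SE 0.106, adjusted p = 0.000623). In the DMF cultures, from 4 to 24 h, 13 of 15 fell, where 15.5% of all genes were called. Top2a stood at a log2FC of -2.03 (SE 0.117) and Cdc20, an activator of the anaphase-promoting complex, at -1.69 (SE 0.0989). Markers of dividing cells moved with this list. All 5 were called lower with DMF at 24 h, and their summed level was between 72.2 and 87.9 CPM against 175 and 196 CPM with DMSO, although 4 of these 5 markers are also in the list. Of 6 markers of the oligodendrocyte lineage, 3 were also lower. The part of a change in cell numbers in these values was not tested. At 4 h with DMF, none of the 5 markers of dividing cells was called by limma, and their summed level was between 224 and 288 CPM against 202 and 261 CPM with DMSO.

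**Figure D5:**
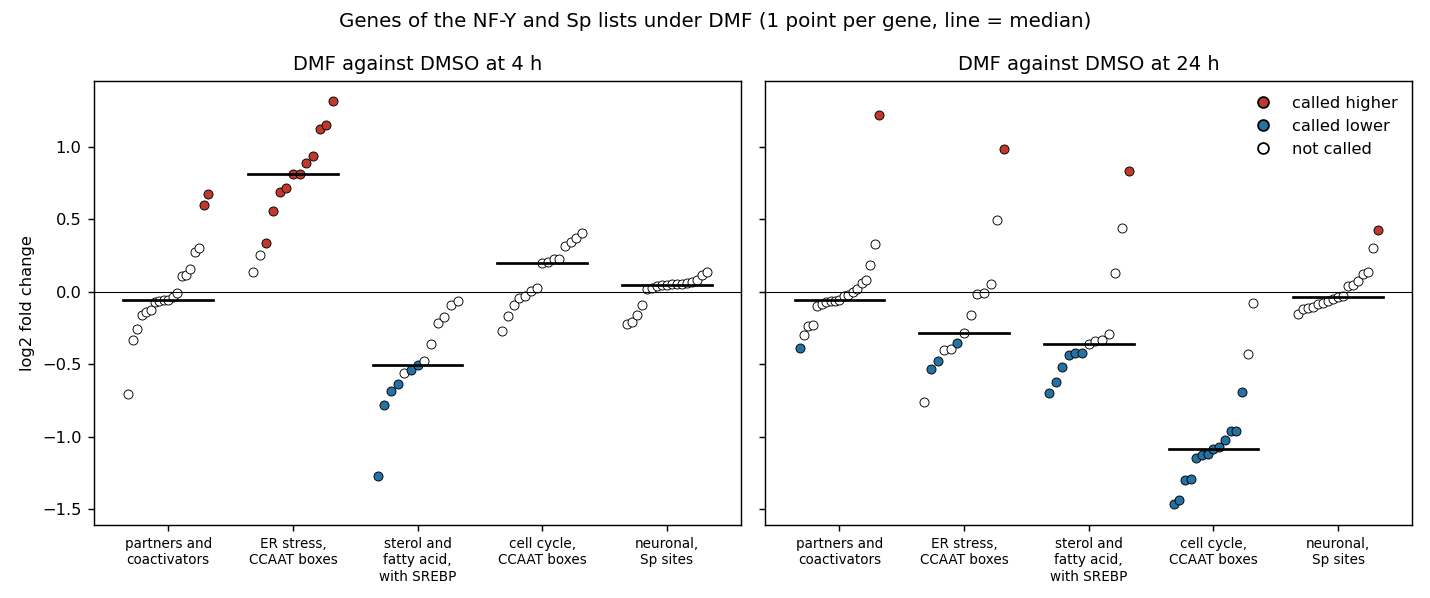
Log2 fold changes of DMF against DMSO for single genes of 5 lists at 4 h (left) and 24 h (right), sorted within each list; red points were called higher, blue points lower, white points were not called, and lines are medians. The ER stress list has a median of 0.81 at 4 h, and the cell cycle list one of -1.09 at 24 h.

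Neuronal genes were listed as Sp targets from background knowledge, and a check of their windows for GC boxes is void because only 11 of 18 genes had a window. With DMF at 4 h, limma, DESeq2 and edgeR called 0 of 17, with 0 at an unadjusted p under 0.05. With the block 2 were lower, against 23% of all genes called, and the median log2FC was 0.05. At 24 h, 1 was called higher, where 3.97% of all genes were called. Between 4 and 24 h with DMF, 3 of 17 rose, where 15.5% of all genes were called, among them Grin2b, the gene of an NMDA receptor subunit, by a log2FC of 0.45 (SE 0.107, adjusted p = 0.0250). Of 6 other genes listed as Sp targets, limma, DESeq2 and edgeR called 0 with DMF at 4 h, with 1 at an unadjusted p under 0.05. Cdkn1a, the gene of the cell cycle inhibitor p21 and a known Sp1 target, rose at 24 h from 344 ± 37.1 to 1181 ± 248 normalized counts (log2FC 1.76, SE 0.149, adjusted p = 0.000638). In the DMF cultures, from 4 to 24 h, it rose by a log2FC of 1.31 (SE 0.233, adjusted p = 0.00863). With MMF at 4 h, limma called 0 genes in each of the 8 lists, and 0 had an unadjusted p under 0.05 or were called by DESeq2 or edgeR. At 24 h with MMF, limma, DESeq2 and edgeR again called 0 in each list, but 8 cell cycle genes were higher and 4 sterol genes lower at an unadjusted p under 0.05. With the block, 1 cell cycle gene was called higher there and 1 sterol gene lower, against 1.38% of all genes.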

How the data were processed

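Poly(A) RNA of 30 libraries from cultured hippocampal neurons was sequenced. The submitters' notes name FastQC 0.12.1, Cutadapt 4.4, Trimmomatic 0.39, HISAT2 2.2.1 (mRatBN7.2), HTSeq 2.0.3, R 4.3.1 and DESeq2 1.40.2. Strand setting and treatment of multi-mapping reads, which matter for overlapping genes and the Sp family, are not given in the sources used here. The authors deposited a signal per gene, HTSeq counts divided by the size factor of each library within the 6 libraries of a table. Dividing by the step of each library recovered whole reads for 100% of values (tolerance 0.01). Of 19 tables, 10 were used; the authors' fold changes and p-values were not. Because the unit was not raw counts, limma 3.58.1 (trended empirical Bayes, R 4.3.3) on log2(normalized count + 1) was the main test, after filtering low genes with filterByExpr of edgeR 4.0.16; edgeR and DESeq2 1.42.0 on recovered reads were alternatives. Fold changes on this scale understate changes of low genes. Interactions used 12 libraries and the F-test all 30.

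The members and the gene lists were chosen with earlier results of these data known. Named list genes were, per list and comparison, up to 2 higher and up to 2 lower called genes with the smallest p for DMF against DMSO at either time and for 24 against 4 h with DMF; the 5 genes most like Nfya and genes overlapping or starting within 2 kb of a member were named too. Genes of the short lists of other Sp factors and histone-fold relatives were named after their values were seen. Libraries with the same number deviated together from their group means (r between 0.129 and 0.668, all above the minimum of 0.1, against at most 0.185 for different numbers), so the number was taken to pair libraries. The main limma, DESeq2 and edgeR tests did not use this pairing, and only the fits with the library number as a block did. The p-values measure the spread between these libraries. Simulated data were used for 1 comparison only, DMF against DMSO at 4 h. Of 14208 genes, 200 were given a log2 change of 1. In all, 165 genes were called, among them 159 of these 200 (79.5%). Recovery of smaller changes, such as those of the members other than Nfya, was not tested, nor were the other comparisons. Some genes that this rule selects are not reported here. Figures were drawn with matplotlib 3.10.9.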

Additional observations from a re-analysis of the deposited data

Results flagged for a closer look

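Nfyc and Sp1 were singled out because all 3 library numbers moved one way at 4 h and the other way at 24 h. For Nfyc, DMF against DMSO gave log2 ratios of 0.30, 0.10 and 0.11 at 4 h and -0.12, -0.12 and -0.22 at 24 h in libraries 1, 2 and 3. The difference, 24 h minus 4 h, was -0.32, with an adjusted p of 0.0963 by limma's interaction test and 0.0386 with the library number as a block. For Sp1, these ratios were 0.29, 0.09 and 0.20 at 4 h and -0.28, -0.20 and -0.02 at 24 h. Its difference was -0.35, with an adjusted p of 0.112, and 0.0206 with the block. The test called 4.12% of all genes without and 13.2% with the block, and since both genes were picked out here for this pattern, the p-values are not independent support for it.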

How the results depend on the processing

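Of 840 values of a member in a comparison under an alternative, 818 stayed called or uncalled, 14 became called and 8 lost a call. Most of the 818 were uncalled in the main test and had no call to lose. Apart from Nfya, the main test called only Nfyc and Sp1, both for 24 against 4 h with DMF. Each of these 2 calls was lost in some of the fits that left out 1 library. A reversal was counted only where both values were called, and there were 0. Uncalled values that changed sign are among the 818, such as Sp3 with DMF at 24 h, at -0.04 without DMF library 2 and 0.03 with it. The 840 include Nfya in the contrasts that the rule used. The 8 losses all came among the 360 that left out 1 library, and any loss by Nfya in those contrasts is a description. The counts that follow hold Nfya, which the rule used, so they bear on the other members only where another member gained or lost a call. With the replicate block, DMF against DMSO at 4 h called 3 members instead of 1, and so did edgeR with the block, while the spread from all 30 libraries gave 2. DMF against MMF at 4 h called 3 instead of 1 with the block, 2 by edgeR with the block and 2 with the spread from all 30 libraries. The DMF interaction called 3 instead of 1 with the block. Over all genes, the block raised the calls from 485 to 3274 for DMF at 4 h, from 554 to 1803 at 24 h, from 2216 to 4616 for 24 against 4 h with DMF, from 229 to 3347 and from 506 to 1740 for DMF against MMF at 4 and 24 h, from 594 to 1904 for the DMF interaction and from 3729 to 7754 for the F-test. It also gave 195 instead of 1 for MMF at 24 h, 330 instead of 1 and 71 instead of 16 for CBD at 4 and 24 h, 205 instead of 0 for 24 against 4 h with DMSO and 8 instead of 0 for the CBD interaction. Leaving out 1 library, 24 against 4 h with DMF called between 1 and 3 members, with 1 without library 1 or 2 of DMF at 4 h. DMF against MMF at 4 h called between 0 and 1, with 0 without library 2 of DMF or of MMF at 4 h. With all libraries that 1 call was of Nfya, so this range is a description and does not bear on the other members. Without removal of library-number means, 2 of the 5 genes most like Nfya remained among the first 5. With the block, 24 against 4 h with DMF called 4 members instead of 3, and it changed no other member call. The cause of these changes was not tested. With 3 libraries a group, adjusted p-values near the threshold turn on single libraries.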
